A study of Homo sapiens with 50 samples.

Results

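IGF2, H19 and 8 other imprinted genes were followed while human embryonic stem cells differentiated toward heart muscle and other cell types in medium made more acid or more basic. The 10 genes, namely IGF2, H19, CDKN1C, PLAGL1, GRB10, DLK1, MEG3, PEG3, PEG10 and MEST, were taken by name from the 57905 genes of the deposited tables, and each name had 1 row. RNA of H1, an established human embryonic stem cell line of wild type genotype, had been sequenced in 50 libraries, 2 for each of 25 groups. On each of days 3, 5, 7 and 11 there were cultures with HCl (an acid), with NaHCO3 (bicarbonate, a base), with IWP2 (an inhibitor of the secretion of WNT proteins), with IWP2 and NaHCO3, with IWP2, NaHCO3 and 2-DG (2-deoxyglucose, an inhibitor of glycolysis), and differentiation controls. Undifferentiated cells of day 0 formed the last group. Doses, pH readings and the times at which agents were given are not stated in the sources used here. All groups come from 1 cell line. Nothing says that the 2 libraries of a group came from separate cultures, so a p-value here speaks of the spread between such libraries alone, which may be technical.

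An imprinted gene is transcribed mainly from the copy inherited from 1 parent, because a nearby control region carries a DNA methylation mark set in the egg or the sperm. Many imprinted genes act on fetal growth. IGF2 is a growth factor expressed from the paternal copy, and its neighbour H19 is a long noncoding RNA expressed from the maternal copy. In mouse embryos both are switched on together in mesoderm and endoderm by enhancers that lie beyond H19, and the factor CTCF, bound at the control region between the genes, decides which of them the enhancers reach. Reads were not assigned to parental copies here, so the levels below are totals over both copies and do not measure imprinting itself.

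H19 RNA is the precursor of a microRNA, miR-675, whose hairpin lies inside 4 of the 12 annotated H19 transcripts. Its mature arms are shown because they are a product of the most abundant RNA among the 10 genes. The capitals mark the seed, bases 2 to 8, which pairs with target RNAs, and the sequences are those of RefSeq.
hsa-miR-675-5p: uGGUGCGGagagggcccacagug
hsa-miR-675-3p: cUGUAUGCccucaccgcuca
The arms have different seeds, and small RNA was not measured here.

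RefSeq promoter windows of 300 bases on GRCh38.p14 were at hand for 5 of the 10 genes (H19, MEG3, MEST, PLAGL1 and GRB10), in 19 windows of 35116 in all. Shown are those of H19, MEST and PLAGL1, which rose and fell beside IGF2 in many of the comparisons below, each by its window with the most CpG sites. MEG3 was too low to test and GRB10 had few calls. CpG, the dinucleotide that carries DNA methylation, is in capitals. The windows are chr11:2001217-2001516 on the minus strand, chr7:130491835-130492134 on the plus strand and chr6:144008210-144008509 on the minus strand.
H19: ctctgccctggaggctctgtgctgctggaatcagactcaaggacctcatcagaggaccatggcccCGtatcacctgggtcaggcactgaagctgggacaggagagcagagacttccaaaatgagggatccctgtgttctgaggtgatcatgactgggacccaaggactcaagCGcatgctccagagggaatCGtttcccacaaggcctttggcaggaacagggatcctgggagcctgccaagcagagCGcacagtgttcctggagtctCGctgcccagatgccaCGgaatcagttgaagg
MEST: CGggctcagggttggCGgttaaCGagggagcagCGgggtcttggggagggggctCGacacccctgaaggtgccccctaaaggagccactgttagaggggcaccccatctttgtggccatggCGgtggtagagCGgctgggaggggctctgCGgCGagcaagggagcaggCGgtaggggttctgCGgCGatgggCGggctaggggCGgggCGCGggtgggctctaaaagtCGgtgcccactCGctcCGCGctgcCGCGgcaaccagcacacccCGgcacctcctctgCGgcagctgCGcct
PLAGL1: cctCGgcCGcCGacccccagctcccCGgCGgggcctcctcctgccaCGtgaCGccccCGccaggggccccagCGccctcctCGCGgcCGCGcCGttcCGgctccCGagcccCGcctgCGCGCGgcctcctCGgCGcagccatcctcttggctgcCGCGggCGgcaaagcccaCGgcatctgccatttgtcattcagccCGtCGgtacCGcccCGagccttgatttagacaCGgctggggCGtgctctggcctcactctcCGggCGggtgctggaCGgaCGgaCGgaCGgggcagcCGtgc
The H19 window held 6 CpG, against a median of 14 over all windows (percentile 36.8). The MEST window held 25 (percentile 69.9) and the PLAGL1 window 39 (percentile 92.4). The letters GGGGCCCC, which read the same on both strands and resemble the sequence that PLAGL1 protein binds in vitro, were found in this PLAGL1 window, in no H19 or MEST window and in 1.95% of all windows. The letters GGGCGG, searched on both strands, were found in these MEST and PLAGL1 windows and in 44.95% of all windows. A match describes the letters and is not a measured binding site. Methylation was not measured in these libraries.

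The libraries held between 14090004 and 22796553 counted reads. Expression levels below are FPKM, fragments per kilobase of exon scaled to the library's total count, as the authors deposited them, and the 2 values of a group are its 2 libraries. The 2 libraries with IWP2, NaHCO3 and 2-DG on day 3 lay farthest apart (r = 0.92 between their log2 levels). The summed level of 8 markers of pluripotent cells was 1951 to 1955 FPKM in undifferentiated cells and at most 525 FPKM in any differentiating library. Days 3 and 5 were deposited in 1 table of 24 libraries and days 7, 11 and 0 in another of 26. Tests were made within a table only, and levels set across the tables are descriptions. A gene was called where the adjusted p of edgeR's quasi-likelihood test was under 0.05 and the fold change on the log2 scale was 1 or more in either direction. Each ± beside a log2 fold change is its standard error.

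IGF2 (ENSG00000167244, GRCh37 chromosome 11, 2150342 to 2170833, minus strand) and H19 (ENSG00000130600, chromosome 11, 2016406 to 2022700, minus strand) had the widest ranges of the 10 genes. IGF2 was near the bottom of the range in undifferentiated cells, at 0.83 and 0.70 FPKM. In control cultures it had 4.72 and 3.41 FPKM on day 3, 234 and 238 FPKM on day 5, 451 and 425 FPKM on day 7, and 847 and 815 FPKM on day 11. The libraries of each of these groups lay apart from those of the other days. H19 had 1.97 and 1.72 FPKM in undifferentiated cells. In control cultures it had 23.9 and 11.95 FPKM on day 3, 1380.17 and 1389 FPKM on day 5, 2213 and 2178 FPKM on day 7, and 2856 and 2891 FPKM on day 11.

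Both genes thus rose steeply between days 3 and 5 of control differentiation. IGF2 was higher on day 5 than on day 3 by 5.91 ± 0.24 on the log2 scale (edgeR adjusted p = 2.07e-13) and H19 by 6.32 ± 0.35 (edgeR adjusted p = 1.64e-11). With IWP2 the same step was 6.08 ± 0.24 for IGF2 and 6.72 ± 0.35 for H19. With HCl it was smaller, 2.04 ± 0.21 for IGF2 and 3.04 ± 0.34 for H19, and the difference between the HCl and the control step was called for both genes (IGF2 -3.87 ± 0.29, H19 -3.28 ± 0.45). Between days 7 and 11 neither gene was called in control, HCl or IWP2 cultures. The values of IGF2 for that step were 0.99 ± 0.18 in controls and 0.95 ± 0.18 with IWP2, just under the threshold of 1. The control value was called with DESeq2 and with its size factors, and was 1.03 and called without replicate 1 of the control libraries of day 7. With IWP2 the IGF2 value was 1.04 and called without replicate 2 of day 11. Without replicate 2 of day 7, IGF2 was called at 1.28 and H19 at 1.10. By day 11, control cultures stood above undifferentiated cells by 9.98 ± 0.27 for IGF2 and 10.50 ± 0.31 for H19, and HCl cultures by 6.53 ± 0.25 for IGF2 and 7.13 ± 0.28 for H19.

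**Figure D1:**
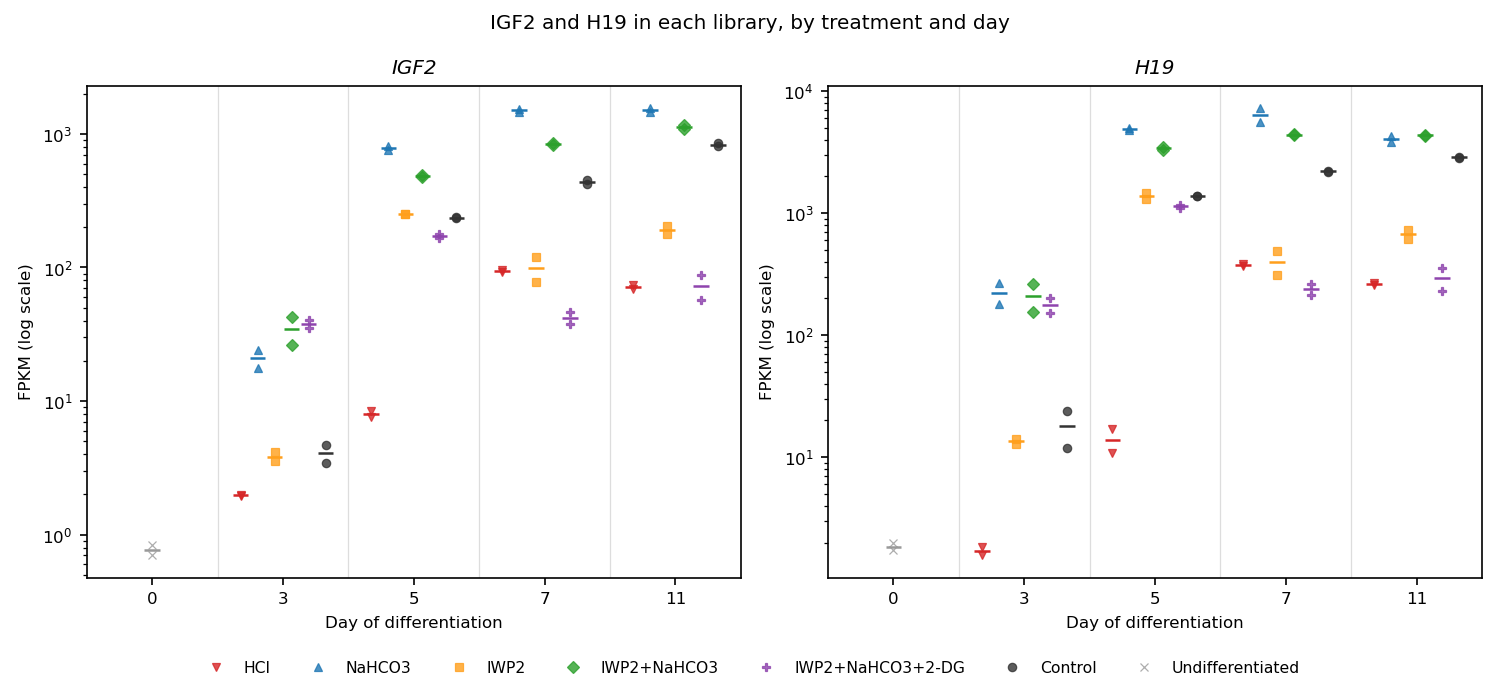
IGF2 (left) and H19 (right) in FPKM on a log axis by day of differentiation, with 1 point per library, a short line at the mean of the 2 libraries of a group, and colours and symbols for treatments. NaHCO3 libraries lie above the control libraries on every day for both genes, and HCl libraries lie below them on every day.

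HCl cultures held less of both RNAs than controls. On day 3, IGF2 had 1.95 and 1.98 FPKM with HCl, against 4.72 and 3.41 FPKM in controls. This difference of -0.97 ± 0.21 on the log2 scale was just short of a call, and it was -1.18 and called without replicate 2 of the controls. H19 had 1.57 and 1.83 FPKM with HCl, against 23.9 and 11.95 FPKM in controls, a called fall of -3.32 ± 0.34. On day 5 the gap was widest. IGF2 had 7.64 and 8.47 FPKM with HCl, against 234 and 238 FPKM in controls (-4.83 ± 0.22, edgeR adjusted p = 1.42e-12). H19 had 10.88 and 16.99 FPKM with HCl, against 1380.17 and 1389 FPKM in controls (-6.60 ± 0.35, edgeR adjusted p = 1.06e-11). The groups did not overlap for either gene on any day. On day 7, IGF2 had 92.98 and 95.75 FPKM with HCl, against 451 and 425 FPKM in controls, and H19 had 369 and 380.23 FPKM, against 2213 and 2178 FPKM. On day 11, IGF2 had 69.19 and 74.3 FPKM with HCl, against 847 and 815 FPKM in controls (-3.45 ± 0.19), and H19 had 259 and 266 FPKM, against 2856 and 2891 FPKM (-3.37 ± 0.21). The HCl effect on IGF2 was larger on day 11 than on day 7, by -1.29 ± 0.25. For H19 this difference was -0.87 ± 0.27 and was not called.

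NaHCO3 moved both genes the other way. On day 3, IGF2 had 24.26 and 17.57 FPKM with NaHCO3, against 4.72 and 3.41 FPKM in controls (2.41 ± 0.21). H19 had 266 and 181 FPKM with NaHCO3, against 23.9 and 11.95 FPKM in controls (3.69 ± 0.31, edgeR adjusted p = 1.03e-07). Both were thus raised on day 3, while the steep step of the controls lay between days 3 and 5, with no sampling in between. On day 5, IGF2 had 752 and 807 FPKM with NaHCO3, against 234 and 238 FPKM in controls, and H19 had 4769 and 4973 FPKM, against 1380.17 and 1389 FPKM. On day 7, IGF2 had 1450.45 and 1544 FPKM with NaHCO3, against 451 and 425 FPKM in controls, and H19 had 5617 and 7225 FPKM, against 2213 and 2178 FPKM. In the higher of these 2 NaHCO3 libraries, H19 alone took 2.0316% of all counted reads. On day 11 the gap was smaller. IGF2 had 1451 and 1552 FPKM with NaHCO3, against 847 and 815 FPKM in controls (1.05 ± 0.18), a call at the threshold that was lost at 0.85 with limma, at pseudocounts of 1 and of 0.1, and at 1.00 without replicate 2 of the NaHCO3 libraries. H19 had 3856 and 4284 FPKM with NaHCO3, against 2856 and 2891 FPKM in controls, and its difference of 0.70 ± 0.19 was not called.

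IWP2 had no called effect on IGF2 or H19 on days 3 and 5, and lowered both on days 7 and 11. On day 5, IGF2 had 252 and 251 FPKM with IWP2, against 234 and 238 FPKM in controls. On day 7 it had 78.31 and 119.76 FPKM with IWP2, against 451 and 425 FPKM in controls (-2.05 ± 0.18), and on day 11 it had 204 and 178 FPKM, against 847 and 815 FPKM (-2.10 ± 0.18). H19 fell alike, to 313 and 490 FPKM with IWP2 on day 7 (-2.36 ± 0.20) and to 734 and 614 FPKM with IWP2 on day 11 (-2.07 ± 0.20). IWP2 libraries of day 7 thus lay below those of day 5, whereas control libraries of day 7 lay above those of day 5. This change spans both tables and was not tested.

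Added to IWP2, NaHCO3 raised both genes on days 3, 7 and 11. On day 3, IGF2 had 42.42 and 26.27 FPKM with IWP2 and NaHCO3, against 4.14 and 3.55 FPKM with IWP2 alone (3.17 ± 0.21), and H19 had 264 and 156 FPKM, against 14.23 and 12.91 FPKM (3.96 ± 0.31). On day 5, H19 was called (1.27 ± 0.28) and IGF2, with 475 and 496 FPKM with IWP2 and NaHCO3, against 252 and 251 FPKM with IWP2 alone, was not (0.91 ± 0.19). On day 7, IGF2 had 850.18 and 823 FPKM with IWP2 and NaHCO3, against 78.31 and 119.76 FPKM with IWP2 alone (3.03 ± 0.19, edgeR adjusted p = 3.06e-09). H19 had 4370.16 and 4433 FPKM with IWP2 and NaHCO3, against 313 and 490 FPKM with IWP2 alone (3.40 ± 0.21). On day 11, IGF2 had 1096 and 1164 FPKM with both agents, against 204 and 178 FPKM with IWP2 alone, and H19 had 4309 and 4362 FPKM, against 734 and 614 FPKM. The NaHCO3 effect was larger with IWP2 than without it on day 7 for IGF2 (by 1.13 ± 0.25) and H19 (by 1.73 ± 0.28), and on day 11 for IGF2 (by 1.58 ± 0.25) and H19 (by 2.05 ± 0.28). The difference for IGF2 on day 7 was 0.86 and not called without replicate 1 of the IWP2 libraries of day 7. On days 3 and 5 the difference was not called for either gene.

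With 2-DG as well, both genes were low from day 7 on. On day 3, IGF2 had 40.3 and 35.19 FPKM with 2-DG, against 42.42 and 26.27 FPKM with IWP2 and NaHCO3, and the groups overlapped. On day 5, IGF2 had 165 and 177 FPKM with 2-DG, against 475 and 496 FPKM without it (-1.33 ± 0.19). On day 7 it had 46.72 and 37.57 FPKM with 2-DG, against 850.18 and 823 FPKM without it (-4.24 ± 0.20, edgeR adjusted p = 1.17e-10), and on day 11 it had 57.09 and 87.12 FPKM, against 1096 and 1164 FPKM (-3.96 ± 0.20). H19 followed, with 262 and 212 FPKM on day 7 with 2-DG, against 4370.16 and 4433 FPKM without it (-4.14 ± 0.22), and with 232 and 357 FPKM on day 11 with 2-DG, against 4309 and 4362 FPKM without it (-3.87 ± 0.22). In each of these comparisons of days 5, 7 and 11 the groups lay apart.

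On day 11, IGF2 was high in the groups where markers of stroma, the connective tissue cells that make collagen, were high, and low where they were low. H19 did not follow them among the high groups, since it had 4309 and 4362 FPKM with IWP2 and NaHCO3 and 3856 and 4284 FPKM with NaHCO3 alone. The summed level of 8 stroma markers was 6849 to 7045 FPKM in NaHCO3 libraries of day 11, 370.5 to 383.5 FPKM with HCl, 681 to 746 FPKM with IWP2, 3677 to 3750.0 FPKM with IWP2 and NaHCO3, 369.7 to 485 FPKM with 2-DG as well, and 3238 to 3254 FPKM in controls. None of these stroma markers was at 0 in any group of day 11. The summed level of 12 heart muscle markers of day 11 ran the other way, with 122 to 126 FPKM under NaHCO3, 6748 to 6801 FPKM under HCl, 4415 to 4524 FPKM under IWP2, 437 to 453 FPKM under IWP2 and NaHCO3, 6672 to 7389 FPKM with 2-DG as well, and 692 to 943 FPKM in controls. The 12 liver and endoderm markers summed to 4321 to 5400.0 FPKM under NaHCO3, 274 to 452 FPKM under HCl, 180.2 to 199 FPKM under IWP2, 4968 to 5340.0 FPKM under IWP2 and NaHCO3, 198 to 207 FPKM with 2-DG as well, and 5264 to 6241 FPKM in controls. On days 5 and 7 IGF2 and the stroma sum were again both highest with NaHCO3, and on day 5 both were lowest with HCl. With HCl on day 5 the stroma sum was 97.76 to 100.8 FPKM, against 927 to 1053 FPKM in controls. Pluripotent cell markers then summed to 214.6 to 216.8 FPKM with HCl, against 96.52 to 98.33 FPKM in controls. Neural markers were higher too, and heart muscle, liver and endoderm, and endothelium markers lower. The match of IGF2 with the stroma sum had exceptions on days 3, 5 and 7. On day 7 the stroma sum was 2450 to 2567 FPKM in controls and 2453 to 2584 FPKM with IWP2 and NaHCO3. IGF2 then had 451 and 425 FPKM in controls, against 850.18 and 823 FPKM with both agents. On day 5 the stroma sum was 764 to 816 FPKM with IWP2, below 927 to 1053 FPKM in controls. IGF2 then had 252 and 251 FPKM with IWP2, against 234 and 238 FPKM in controls. On day 3 the stroma sum was lower with NaHCO3, at 75.68 to 76.76 FPKM, against 89.1 to 98.12 FPKM in controls. Some other sums were higher with NaHCO3 that day, with no overlap, while those of pluripotent cell markers and of neural markers overlapped with controls. Liver and endoderm markers summed to 23.11 to 24.72 FPKM with NaHCO3, against 16.47 to 20.51 FPKM in controls, and heart muscle markers to 22.1 to 26.43 FPKM, against 13.61 to 16.06 FPKM. The 6 endothelium markers summed to 107.0 to 107.4 FPKM with NaHCO3, against 89.77 to 101.3 FPKM in controls. In these bulk samples, fewer cells of a type and less RNA per cell cannot be told apart, and the part of the cell mixture in these results was not tested.

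**Figure D2:**
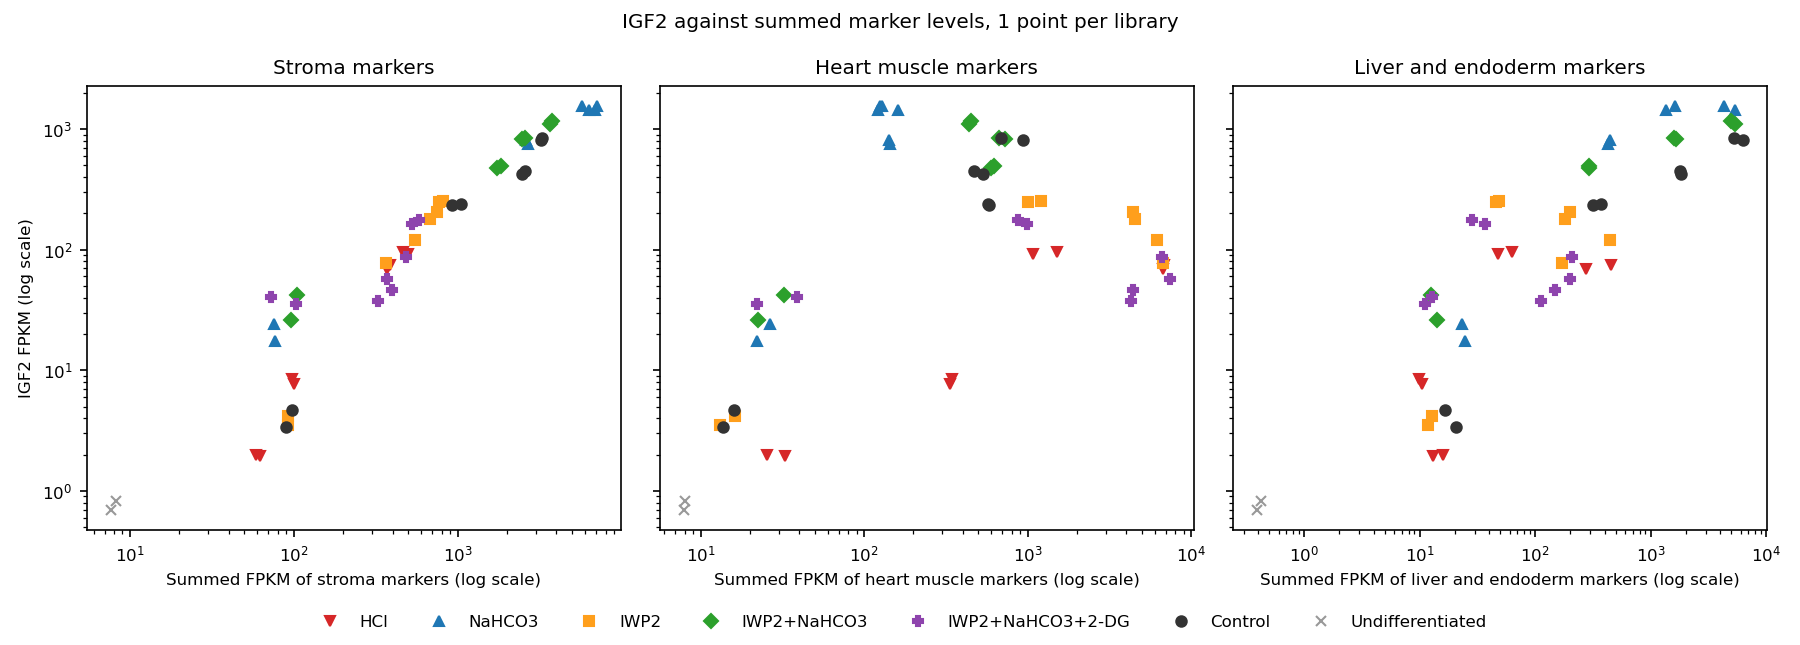
IGF2 in FPKM (vertical, log scale) against the summed FPKM of stroma, heart muscle, and liver and endoderm markers (horizontal, log scale), with 1 point per library and treatments by colour and symbol. IGF2 and the stroma sum are both lowest in undifferentiated cells and highest with NaHCO3 on days 7 and 11, and libraries with heart muscle sums of 4312 FPKM or more have between 37.57 and 204 FPKM of IGF2.

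The share of H19 relative to IGF2 was not fixed. H19 divided by IGF2, both in FPKM, ranged over the 50 libraries between 0.8051 and 10.96. On day 3 the ratio was 0.8051 and 0.9242 with HCl and 10.96 and 10.28 with NaHCO3, against 5.064 and 3.504 in controls. On day 5 it was 1.424 and 2.006 with HCl and 6.339 and 6.161 with NaHCO3, against 5.903 and 5.825 in controls. HCl libraries were thus below controls in this ratio on these days, and NaHCO3 libraries above them, by little on day 5. With IWP2 and NaHCO3 the ratio of day 5 was higher still, at 7.393 and 6.68. The HCl ratio of day 3 rests on 72 and 85 reads of H19. On day 7 the ratio was 3.973 and 3.971 with HCl and 3.872 and 4.679 with NaHCO3, which overlapped, against 4.903 and 5.131 in controls. On day 11 the ratio was 3.742 and 3.582 with HCl and 2.657 and 2.760 with NaHCO3, against 3.370 and 3.547 in controls. The order of HCl and NaHCO3 was then the reverse of that on days 3 and 5.

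**Figure D3:**
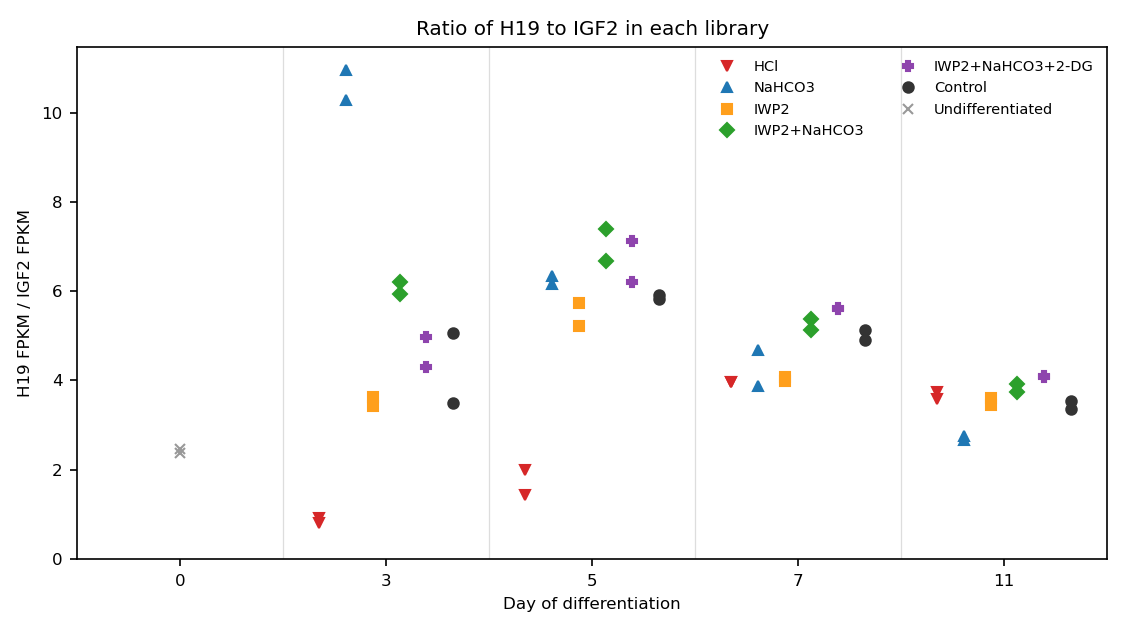
H19 divided by IGF2, both in FPKM, in each library by day of differentiation, with treatments by colour and symbol. The highest points are the NaHCO3 libraries of day 3, at 10.96 and 10.28, and the lowest are the HCl libraries of day 3, at 0.8051 and 0.9242.

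The IGF2 locus holds other annotated genes. IGF2-AS lies on the opposite strand over 8164 bases of it and reached 14.77 FPKM. MIR483 lies within it on the same strand and reached 89.32 FPKM, and INS-IGF2 overlaps it on the same strand and reached 0.02 FPKM. The sources used here do not say if the counting used strand, and without strand the reads of IGF2 and IGF2-AS cannot be told apart. No gene of the deposited tables overlaps H19. By Pearson correlation of log2(FPKM + 1), taken over the 24 libraries of days 3 and 5 and over the 26 of the other table, IGF2 and H19 had r = 0.979 and 0.991. The genes outside the 10 most like IGF2 were IGF2-AS (0.966 and 0.943), GPR124 (0.974 and 0.930) and COL3A1, a collagen of stroma (0.927 and 0.975). Those most like H19 were AFAP1L2 (0.967 and 0.949), GPR124 (0.939 and 0.953) and ZNF503 (0.925 and 0.965). Libraries share their day and treatment, so these values describe the patterns and carry no test.

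CDKN1C (ENSG00000129757, chromosome 11, 2904443 to 2907111, minus strand) lies further along the same imprinted cluster and encodes p57, an inhibitor of cyclin-dependent kinases that is expressed from the maternal copy. It was expressed in undifferentiated cells already, at 12.16 and 11.85 FPKM. In control cultures it had 14.1 and 13.94 FPKM on day 3, 62.19 and 63.84 FPKM on day 5, 83.89 and 80.29 FPKM on day 7, and 99.65 and 106.61 FPKM on day 11, and the step between days 3 and 5 was called (2.22 ± 0.21). HCl gave effects of opposite sign on days 3 and 5. On day 3, CDKN1C had 35.27 and 37.66 FPKM with HCl, against 14.1 and 13.94 FPKM in controls (1.46 ± 0.21, edgeR adjusted p = 2.53e-05). On day 5 it had 20.77 and 18.28 FPKM with HCl, against 62.19 and 63.84 FPKM in controls (-1.65 ± 0.21), and the difference between the 2 effects was called (-3.11 ± 0.30). It was lower than in controls with HCl on days 7 (-1.99 ± 0.12) and 11 (-1.98 ± 0.12) too, where the groups lay apart.

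The highest CDKN1C was seen with NaHCO3 on day 11. It had 279 and 281 FPKM with NaHCO3, against 99.65 and 106.61 FPKM in controls (1.64 ± 0.11), while on days 3, 5 and 7 NaHCO3 had no called effect. With IWP2 it was called lower on days 5, 7 and 11, at -1.15 ± 0.20, -1.75 ± 0.12 and -1.74 ± 0.11. Between days 5 and 3 the effect of IWP2 on it differed by -1.23 ± 0.29, which was not called without replicate 2 of the IWP2 libraries of day 5 (-1.15) or replicate 1 of day 3 (-0.95). NaHCO3 added to IWP2 gave 138 and 149 FPKM on day 11, against 31.68 and 29.03 FPKM with IWP2 alone (2.31 ± 0.12). With 2-DG as well, CDKN1C had 16.64 and 18.83 FPKM on day 11, against 138 and 149 FPKM without it (-3.00 ± 0.12). The NaHCO3 effect on day 7 was larger with IWP2 than without it by 1.13 ± 0.16, which was 0.90 and not called without replicate 1 of the NaHCO3 libraries. Calls at the threshold were gained for NaHCO3 added to IWP2 on day 5 without replicate 1 of the IWP2 libraries (1.03), and for IWP2 cultures between days 3 and 5 (0.99 ± 0.21) without replicate 2 of day 5 (1.06) or replicate 1 of day 3 (1.27). Its most similar genes were PTK2B (r = 0.966 and 0.898), TGFBR3 (0.879 and 0.980) and NPNT (0.862 and 0.969).

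PLAGL1 (ENSG00000118495, chromosome 6, 144261437 to 144385735, minus strand) encodes a zinc finger transcription factor expressed from the paternal copy, and its mouse counterpart regulates other imprinted genes, Igf2 and H19 among them. It was nearly absent from undifferentiated cells, with 0.08 FPKM in both libraries (9 reads each). In control cultures it had 2.47 and 2.21 FPKM on day 3, 6.76 and 8.48 FPKM on day 5, 12.07 and 12.71 FPKM on day 7, and 12.45 and 11.67 FPKM on day 11. Among the tested genes of the 10 it was, with H19, the most often called: in 16 of the 20 treatment comparisons, 5 times higher and 11 times lower. It was also called with IWP2 on day 3, with 0.39 and 0.60 FPKM under IWP2, against 2.47 and 2.21 FPKM in controls (-2.22 ± 0.23, edgeR adjusted p = 2.11e-05).

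With HCl, PLAGL1 fell on every day. On day 7 it had 0.63 and 0.69 FPKM with HCl, against 12.07 and 12.71 FPKM in controls (-4.19 ± 0.13, edgeR adjusted p = 2.38e-21), and on day 11 it had 1.38 and 1.45 FPKM with HCl, against 12.45 and 11.67 FPKM in controls (-3.00 ± 0.12). The fall of day 3 was at the threshold (-1.03 ± 0.21) and was not called with limma at a pseudocount of 1 (-0.69), without replicate 1 of the controls (-0.95) or without replicate 2 of the HCl libraries (-0.78). The HCl effect was smaller on day 11 than on day 7, by 1.18 ± 0.19, which was 0.58 and not called with limma at a pseudocount of 1. NaHCO3 raised it on day 3, to 8.19 and 7.24 FPKM with NaHCO3, against 2.47 and 2.21 FPKM in controls (1.77 ± 0.19), and had no called effect on later days. Added to IWP2, NaHCO3 raised it on all 4 days, by 1.91 ± 0.24, 2.21 ± 0.19, 2.69 ± 0.12 and 2.26 ± 0.11 on days 3, 5, 7 and 11. The value of day 3 was 0.95 and not called with limma on log2(FPKM + 1), a scale that understates changes of low genes. The NaHCO3 effect was larger with IWP2 than without it on days 5 (by 1.82 ± 0.26), 7 (by 2.35 ± 0.15) and 11 (by 1.83 ± 0.15). With 2-DG as well it had 1.70 FPKM in both libraries of day 7, against 11.82 and 10.44 FPKM without 2-DG (-2.63 ± 0.12). Its most similar genes were HOXB6 (r = 0.915 and 0.943), ST6GALNAC3 (0.857 and 0.962) and TNFAIP3 (0.909 and 0.898).

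GRB10 (ENSG00000106070, chromosome 7, 50657760 to 50861159, minus strand), an adaptor protein that binds the insulin and IGF1 receptors and restrains their signal, was lower in differentiated controls than in undifferentiated cells. It had 13.59 and 13.14 FPKM in undifferentiated cells. In controls it had 7.33 and 7.31 FPKM on day 3, 6.59 and 6.02 FPKM on day 5, 6.60 and 5.78 FPKM on day 7, and 5.04 and 5.10 FPKM on day 11, which was a called fall against undifferentiated cells (-1.50 ± 0.09). Its treatment effects were small, with 6 calls in 20 comparisons. Its highest means were those with 2-DG on days 3 (14.02 FPKM) and 5 (13.62 FPKM), against 13.37 FPKM in undifferentiated cells. On day 5, GRB10 had 12.47 and 14.76 FPKM with 2-DG, against 5.50 and 5.39 FPKM with IWP2 and NaHCO3 (1.49 ± 0.11, edgeR adjusted p = 2.25e-09), so it rose where 6 of the other tested genes fell. It was lower with HCl on day 7 (-1.11 ± 0.10) and with IWP2 on day 7 (-1.25 ± 0.10), and higher with NaHCO3 on day 7, both alone (1.01 ± 0.09) and added to IWP2 (1.06 ± 0.10). The HCl value was -0.93 and not called with limma at a pseudocount of 1. The call with NaHCO3 alone was lost with limma at both pseudocounts, without the filter on low values and without replicate 2 of the controls (0.92) or replicate 1 of the NaHCO3 libraries (0.85), and that with NaHCO3 added to IWP2 with limma at a pseudocount of 1 (0.87) and without replicate 1 of the IWP2 and NaHCO3 libraries (0.97). The call with IWP2 on day 5 (-1.01 ± 0.11) was at the threshold and was lost with DESeq2, limma at both pseudocounts, other size factors and no filter on low values, and without replicate 1 of the controls (-0.94), replicate 2 of the IWP2 libraries (-0.99) or replicate 1 of the 2-DG libraries of day 3 (-0.99). Its most similar genes were WDR46 (r = 0.761 and 0.848), IDH1 (0.769 and 0.831) and LSS (0.798 and 0.783).

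DLK1 (ENSG00000185559, chromosome 14, 101192042 to 101201539, plus strand) is a membrane protein of the Notch ligand family, expressed from the paternal copy, and marks many immature mesoderm and endoderm cells. Unlike IGF2, it was high, then low, then high again in control cultures. DLK1 had 0.43 and 0.30 FPKM in undifferentiated cells (17 and 12 reads). In controls it had 62.62 and 56.31 FPKM on day 3, 10.34 and 8.85 FPKM on day 5, 4.80 and 3.97 FPKM on day 7, and 146 and 158 FPKM on day 11. The fall between days 3 and 5 (-2.58 ± 0.20) and the rise between days 7 and 11 (5.19 ± 0.23, edgeR adjusted p = 1.14e-10) were called. Its correlation with IGF2 was r = -0.843 over the libraries of days 3 and 5 and r = 0.695 over those of the other table.

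The late rise of DLK1 in controls was not seen with HCl or IWP2. On day 11, DLK1 had 4.25 and 4.64 FPKM with HCl, against 146 and 158 FPKM in controls (-5.01 ± 0.23, edgeR adjusted p = 4.61e-11). On day 5 it was higher with HCl, at 34.39 and 28.26 FPKM, against 10.34 and 8.85 FPKM in controls (1.74 ± 0.20). On day 7 it had 14.33 and 10.64 FPKM with HCl, against 4.80 and 3.97 FPKM in controls (1.57 ± 0.24), so the HCl effect differed between days 11 and 7 by -6.58 ± 0.33. IWP2 gave the same order, with 17.02 and 25.05 FPKM on day 7, against 4.80 and 3.97 FPKM in controls (2.36 ± 0.23), and 19.04 and 13.34 FPKM on day 11, against 146 and 158 FPKM in controls (-3.21 ± 0.20), a difference between days of -5.57 ± 0.30. NaHCO3 lowered DLK1 on day 3, to 15.71 and 15.81 FPKM with NaHCO3, against 62.62 and 56.31 FPKM in controls (-1.86 ± 0.19), on day 5 (-1.71 ± 0.22) and on day 11, to 54.01 and 55.43 FPKM, against 146 and 158 FPKM in controls (-1.28 ± 0.18). The uncalled NaHCO3 value of day 7 (0.74 ± 0.26) was 1.01 and called without replicate 2 of the NaHCO3 libraries. Added to IWP2, NaHCO3 lowered it on day 3 (-1.42 ± 0.19) and raised it on day 11, to 98.9 and 98.34 FPKM with both agents, against 19.04 and 13.34 FPKM with IWP2 alone (2.68 ± 0.20). With 2-DG as well, DLK1 had 5.21 and 7.00 FPKM on day 11, against 98.9 and 98.34 FPKM without 2-DG (-4.01 ± 0.22). The NaHCO3 effect thus differed with and without IWP2 on day 11, by 3.95 ± 0.27, and on day 5, by 2.58 ± 0.30. The genes most like DLK1 were ELMO1 (r = 0.892 and 0.770), SEMA3E (0.836 and 0.741) and ZDHHC8P1 (0.753 and 0.786).

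MEG3 (ENSG00000214548, chromosome 14, 101245747 to 101327368, plus strand), the maternally expressed noncoding RNA of the DLK1 domain, was listed at 0.58 FPKM or less in all 50 libraries and was too low to test. It had 0.58 and 0.32 FPKM with HCl on day 3 (148 and 83 reads), against 0.28 and 0.31 FPKM in controls (102 and 81 reads). Both undifferentiated libraries had 0 reads. Its listed exons span 15769 bases, so a given number of reads yields a low FPKM. In the control library of day 11 with 158 FPKM of DLK1, MEG3 had 0.14 FPKM (38 reads). MEG3 reads in controls were 10 and 4 on day 5, 23 and 14 on day 7, and 40 and 38 on day 11. On day 11 it had 3 and 12 reads with HCl and 1 and 4 with IWP2, where DLK1 was also below controls. With IWP2 on day 3 it had 58 and 40 reads, below controls, where DLK1 was above them. None of this was tested.

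PEG3 (ENSG00000198300, chromosome 19, 57321445 to 57352096, minus strand), a zinc finger protein expressed from the paternal copy, was off early and on late. It was at 0.37 FPKM or less in every library of days 3 and 5, too low to test there, and at 0.17 and 0.23 FPKM in undifferentiated cells. On day 7 it had 3.77 and 4.26 FPKM in controls, and on day 11 it had 5.42 and 5.21 FPKM. PEG3 was called lower with HCl on day 7, at 1.44 and 1.54 FPKM with HCl, against 3.77 and 4.26 FPKM in controls (-1.38 ± 0.11). On day 11 it had 4.35 and 4.68 FPKM with HCl, against 5.42 and 5.21 FPKM in controls, and the HCl effect differed between the days by 1.23 ± 0.15, which was 0.81 and not called with limma at a pseudocount of 1. With NaHCO3 on day 7 it had 7.30 and 7.20 FPKM, against 3.77 and 4.26 FPKM in controls (0.97 ± 0.10), just short of a call that was made without replicate 2 of the controls (1.07) or replicate 2 of the NaHCO3 libraries (1.0). It was lower with 2-DG on day 11, at 1.00 and 1.53 FPKM, against 4.29 and 4.2 FPKM without 2-DG (-1.75 ± 0.12). It was also lower with IWP2 on day 11 (-1.11 ± 0.11), a value of -0.88 and no call with limma at a pseudocount of 1.

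PEG10 (ENSG00000242265, chromosome 7, 94285637 to 94299007, plus strand) derives from a retrotransposon and is needed for the placenta in mouse. It was expressed at every stage, with 64.27 and 60.03 FPKM in undifferentiated cells and 68.94 and 66.09 FPKM in controls of day 11. HCl lowered it on days 3, 5 and 11. On day 5 it had 14.17 and 17.94 FPKM with HCl, against 63.12 and 66.01 FPKM in controls (-1.97 ± 0.20, edgeR adjusted p = 1.19e-07). The fall of day 3 (-1.05 ± 0.20) was not called without replicate 1 of the HCl libraries (-1.0). IWP2 alone had no called effect on PEG10 on days 3 and 5, and lowered it on days 7 and 11. On day 7 it had 17.18 and 21.11 FPKM with IWP2, against 51.79 and 48.83 FPKM in controls. On day 11 it had 27.14 and 29.82 FPKM with IWP2, against 68.94 and 66.09 FPKM in controls. Added to IWP2, NaHCO3 raised PEG10 on day 3, to 84.4 and 86.83 FPKM, against 33.42 and 39.55 FPKM with IWP2 alone (1.23 ± 0.20), and on day 7 (1.79 ± 0.09). NaHCO3 alone raised it on day 7, to 99.4 and 85.52 FPKM, against 51.79 and 48.83 FPKM in controls (1.00 ± 0.09), a call lost with limma at pseudocounts of 1 (0.86) and of 0.1 (0.87), without the filter on low values (0.97), without replicate 2 of the controls (0.96) or without replicate 1 of the NaHCO3 libraries (0.87). With 2-DG it was lower on all 4 days. On day 3, where the 2-DG libraries lay far apart at 22.3 and 49.78 FPKM, against 84.4 and 86.83 FPKM without 2-DG, the fall (-1.14 ± 0.20) was -0.73 and not called without replicate 1 of the 2-DG libraries. Its most similar genes were PARD6G (r = 0.896 and 0.851), CHD3 (0.878 and 0.867) and IGLON5 (0.807 and 0.901).

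MEST (ENSG00000106484, chromosome 7, 130126012 to 130146133, plus strand) encodes a protein of the hydrolase family expressed from the paternal copy, and in mouse embryos it is a transcript of mesoderm. It had 49.31 and 49.13 FPKM in undifferentiated cells. In controls it had 42.73 and 38.21 FPKM on day 3, 59.7 and 58.52 FPKM on day 5, 192 and 194 FPKM on day 7, and 179.55 and 186 FPKM on day 11. Its treatment effects appeared late. With HCl it was not called on days 3 and 5, and on day 7 it had 54.17 and 57.99 FPKM with HCl, against 192 and 194 FPKM in controls (-1.73 ± 0.07, edgeR adjusted p = 3.54e-19). IWP2 lowered it on days 7 (-1.24 ± 0.07) and 11 (-1.22 ± 0.07), and NaHCO3 alone had no called effect on any day. NaHCO3 added to IWP2 raised it, to 249 and 259.79 FPKM on day 11 with both agents, against 80.13 and 74.84 FPKM with IWP2 alone (1.78 ± 0.07), the highest MEST of all groups. The NaHCO3 effect was larger with IWP2 than without it on days 7 (by 1.39 ± 0.09) and 11 (by 1.53 ± 0.09). With 2-DG as well, MEST fell on days 7 (-1.13 ± 0.07) and 11 (-2.14 ± 0.07), and its uncalled value of day 5 (-0.93 ± 0.09) was called with limma at both pseudocounts (-1.09 at a pseudocount of 1). The rise with NaHCO3 added to IWP2 on day 5 (1.02 ± 0.09) was not called without replicate 2 of the IWP2 libraries (0.96) or replicate 2 of the IWP2 and NaHCO3 libraries (0.98). MEST overlaps COPG2 on the opposite strand over 45 bases. The genes most like it were TEK, 1 of the 6 endothelium markers (r = 0.959 and 0.943), FRZB (0.931 and 0.930) and SAMD5 (0.881 and 0.958). The sum of all 6 markers did not follow MEST throughout. On day 11 it was 265.7 to 277.1 FPKM with HCl, against 105.0 to 119.4 FPKM in controls, where MEST was lower with HCl. It was also higher with IWP2 than in controls on days 7 and 11, where MEST was lower. With HCl on day 7 it was lower, as MEST was.

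**Figure D4:**
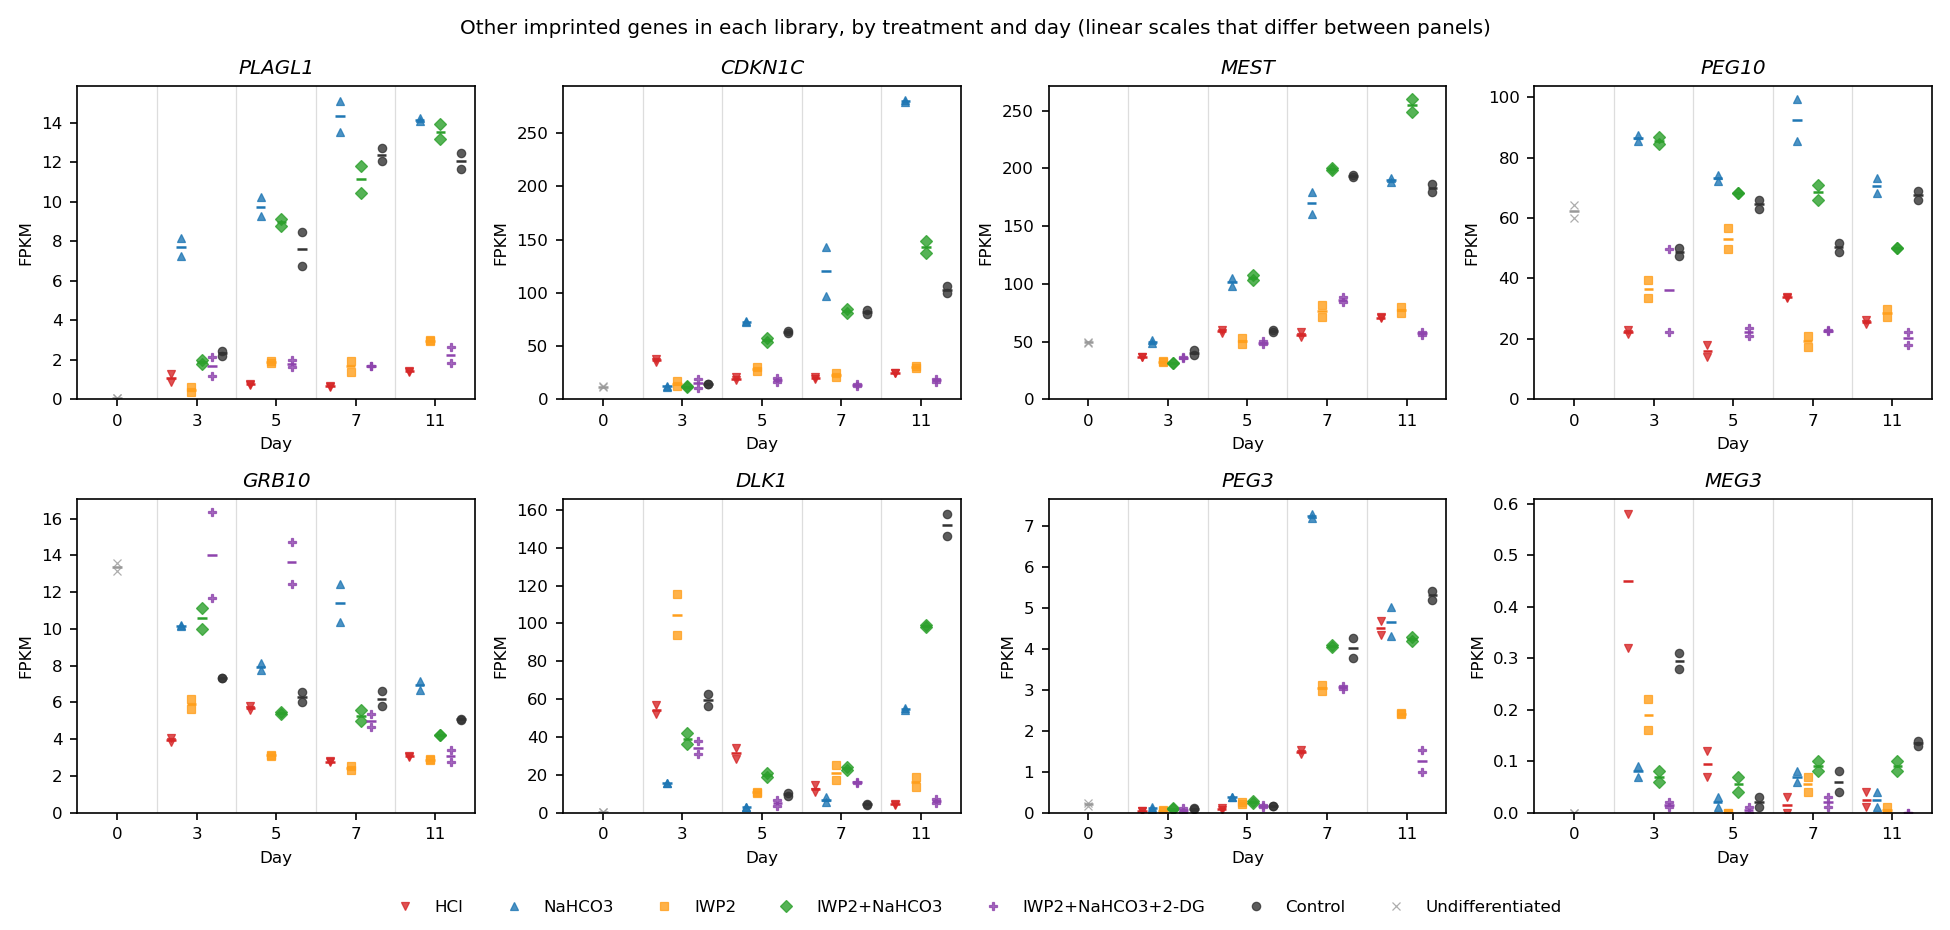
FPKM of the 8 other imprinted genes in each library by day of differentiation, on linear scales that differ between panels, with a short line at the mean of the 2 libraries of a group and treatments by colour and symbol. PLAGL1, CDKN1C and MEST are low with HCl, IWP2, and 2-DG on days 7 and 11, DLK1 is highest in controls of day 11, and MEG3 stays under 0.6 FPKM.

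Set side by side, most of the tested genes of the 10 were called in the same direction on days 7 and 11 with HCl, with IWP2, with NaHCO3 added to IWP2 and with 2-DG. In the table of days 3 and 5, 8 of the 10 passed the filter on low values (MEG3 and PEG3 did not), and 9 passed it for days 7, 11 and 0 (MEG3 did not). The filter keeps a gene that reached 1 FPKM in 2 libraries of a table, which favours genes with a difference. The 10 genes were also chosen with earlier results of these data known. A share of calls above that of all genes tested is therefore a description and no evidence about imprinted genes as a class. With HCl, 4 of 8 were called on day 3 (1 higher, 3 lower), where 10.6% of all genes tested were called, and 6 of 8 on day 5 (1 higher, 5 lower), where 20.0% were. On day 7, 8 of 9 were called (1 higher, 7 lower), against 14.3% of all genes tested, and on day 11, 7 of 9, all lower, against 21.1%. The gene called higher was CDKN1C on day 3 and DLK1 on days 5 and 7. The median log2 fold change of the tested genes of the 10 was -0.89, -1.81, -1.73 and -1.98 on days 3, 5, 7 and 11, where that of all genes tested was 0.01, -0.02, 0.04 and -0.01.

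With NaHCO3, 4 of 8 were called on day 3 (3 higher, 1 lower), against 4.08% of all genes tested, and 3 of 8 on day 5 (2 higher, 1 lower), against 6.39%. On day 7, 4 of 9 were called, all higher, against 10.2%, and on day 11, 3 of 9 (2 higher, 1 lower), against 16.9%. The gene called lower was DLK1 on days 3, 5 and 11. With IWP2, PLAGL1 was the 1 gene of 8 called on day 3, against 0.613% of all genes tested, and 3 of 8 were called on day 5, all lower, against 6.77%. On day 7, 8 of 9 were called (1 higher, 7 lower), against 16.4%, and on day 11, 8 of 9, all lower, against 14.9%. The gene called higher was DLK1.

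With NaHCO3 added to IWP2, 5 of 8 were called on day 3 (4 higher, 1 lower), against 3.19% of all genes tested, and 3 of 8 on day 5, all higher, against 5.81%. On day 7, 7 of 9 were called, all higher, against 16.7%, and on day 11, 6 of 9, all higher, against 18.5%. The medians of the tested genes of the 10 were 1.04, 0.93, 1.79 and 2.26 on the 4 days. With 2-DG added to both agents, PEG10 was the 1 gene of 8 called on day 3, against 3.59% of all genes tested, and 7 of 8 were called on day 5 (GRB10 higher, 6 lower), against 16.5%. On day 7, 6 of 9 were called, all lower, against 16.3%, and on day 11, 8 of 9, all lower, against 21.1%. The medians were 0.13, -1.43, -1.51 and -2.59. Comparisons that share a group of libraries are not independent of each other.

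**Figure D5:**
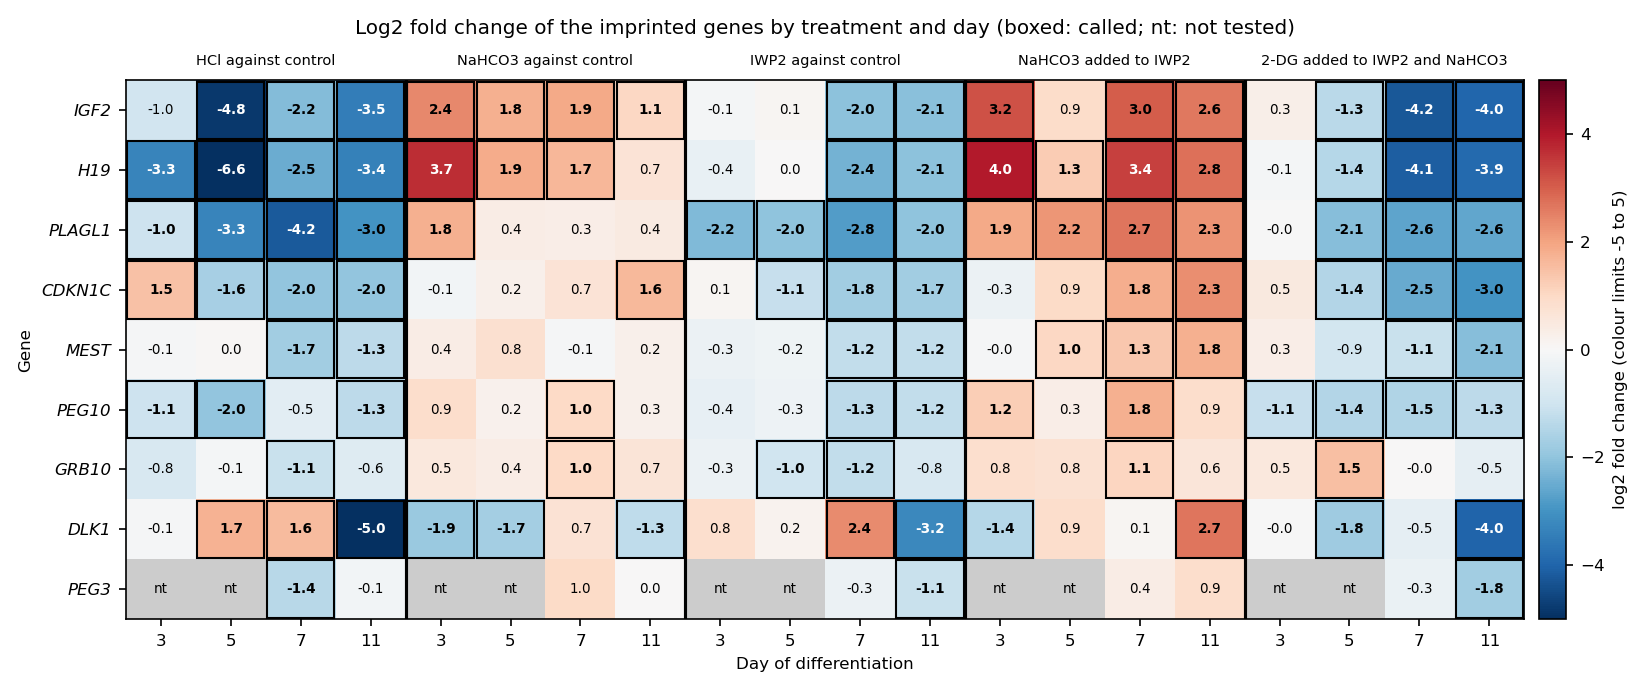
Log2 fold changes of 9 of the imprinted genes (rows) in 5 kinds of treatment comparison on 4 days (columns), with colour limits at -5 and 5, boxes around called values and "nt" where a gene was too low to test. IGF2, H19 and PLAGL1 are blue with HCl and with late IWP2 or 2-DG and red with NaHCO3 added to IWP2, and DLK1 changes colour between days 7 and 11 with HCl and with IWP2.

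Across days, 5 of 8 were called in controls between days 3 and 5 (4 higher, 1 lower on day 5), where 18.1% of all genes tested were called. With HCl 2 of 8 were called, both higher, against 11.6%, and with IWP2 4 of 8 (3 higher, 1 lower), against 19.6%. Between days 7 and 11, 1 of 9 was called in controls, DLK1, against 10.4%, and 3 of 9 with HCl (PLAGL1 and PEG3 higher, DLK1 lower), against 21.6%. The rise of PLAGL1 there (1.21 ± 0.17) was 0.54 and not called with limma at a pseudocount of 1, and also not called at 0.1. With IWP2 0 of 9 were called by edgeR between days 7 and 11, against 7.18% of all genes tested. By edgeR's test 7 of the 9 had an unadjusted p under 0.05. For 6 of the 9 the adjusted p was under 0.05 too, with changes short of 1 on the log2 scale. DESeq2 and limma called 0 each. Against undifferentiated cells, 8 of 9 were called in controls of day 7 (7 higher, 1 lower) and of day 11 (7 higher, 1 lower), where 34.9% and 39.4% of all genes tested were called. With HCl on day 11 it was 8 of 9 (6 higher, 2 lower), against 41.4%, and with IWP2 on day 11 it was 8 of 9 (6 higher, 2 lower), against 40.0%. GRB10 was the gene lower in controls, and GRB10 and PEG10 were lower with HCl and with IWP2.

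Differences between effects were called for 5 of 8 genes between days 5 and 3 with HCl (1 higher, 4 lower), where 16.4% of all genes tested were called, and for 4 of 9 between days 11 and 7 with HCl, against 17.1%. For the IWP2 effect it was 1 of 8 between days 5 and 3, CDKN1C, against 4.52%, and 1 of 9 between days 11 and 7, DLK1, against 5.79%. The NaHCO3 effect with IWP2 was set against that without it. On day 3, 0 of 8 differed by edgeR's test, against 0.399% of all genes tested, while 2 of 8 had an unadjusted p under 0.05, and DESeq2 and limma called 0 each. On day 5, 2 of 8 differed, against 3.94%, on day 7, 5 of 9, against 14.6%, and on day 11, 5 of 9, against 18.1%, each with the more positive effect in the presence of IWP2.

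Other genes reported as imprinted in at least some human tissues were called in both directions in some treatment comparisons and in 1 direction in others. Of 50 listed, 47 were in the tables, with 32 tested for days 3 and 5 and 31 for days 7, 11 and 0. With HCl on day 5, 5 of 32 were higher and 6 lower, where 20.0% of all genes tested were called, and on day 11, 5 of 31 were higher and 9 lower, against 21.1%. Their medians were -0.06 and -0.02. In some other comparisons all calls went 1 way. With HCl on day 7, 4 of 31 were called, all lower, against 14.3% of all genes tested. With IWP2 on day 5 it was 3 of 32, all lower, against 6.77%. With 2-DG on day 7 it was 5 of 31, all lower, against 16.3%. With NaHCO3 added to IWP2 it was 3 of 32 on day 3, against 3.19%, and 3 of 32 on day 5, against 5.81%, all higher. Those that moved most with HCl on day 5 were TFPI2, a protease inhibitor, with 20.31 ± 0.446 FPKM with HCl and 0.290 ± 0.113 FPKM in controls (SD, n = 2 each), and PHLDA2, a gene of the CDKN1C cluster that limits placental growth in mouse, with 22.12 ± 1.49 FPKM with HCl and 0.415 ± 0.0778 FPKM in controls. CALCR, the calcitonin receptor, had 9.11 ± 0.601 FPKM with HCl and 0.295 ± 0.106 FPKM in controls, and NNAT, a small membrane protein, had 29.62 ± 3.85 FPKM with HCl and 115 ± 7.92 FPKM in controls. PHLDA2 thus rose with HCl on days 3 (1.25 ± 0.32) and 5 (5.73 ± 0.42), while its neighbour CDKN1C rose on day 3 (1.46 ± 0.21) and fell on day 5 (-1.65 ± 0.21).

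DIO3, the enzyme that inactivates thyroid hormone and a gene of the DLK1 domain, followed DLK1 in part. It had 2.43 ± 0.431 FPKM in controls of day 5 and 27.62 ± 2.93 FPKM in controls of day 3 (-3.45 ± 0.24), and 6.46 ± 0.629 FPKM with IWP2 and NaHCO3 on day 11 and 0.445 ± 0.247 FPKM with IWP2 alone (3.93 ± 0.35). WT1, a transcription factor of the epicardium and kidney, had 0.455 ± 0.0919 FPKM with NaHCO3 on day 11 and 15.29 ± 1.08 FPKM in controls (-4.87 ± 0.20). It also fell with HCl on day 11 (-4.77 ± 0.19), so it did not move with IGF2 under NaHCO3. IGF2-AS was called beside IGF2, lower with HCl on days 7 (-1.33 ± 0.14) and 11 (-3.04 ± 0.17) and higher with NaHCO3 on days 5 (1.54 ± 0.22) and 7 (1.22 ± 0.12), and its reads may be shared with IGF2. With NaHCO3 added to IWP2 on day 11, 6 of the 31 were higher and 4 lower, against 18.5% of all genes tested that were called, with SNRPN, the imprinted splicing protein of the Prader-Willi region, lower at 3.85 ± 0.0990 FPKM with both agents and 12.15 ± 0.976 FPKM with IWP2 alone (-1.59 ± 0.11).

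Of 17 other listed genes of the IGF pathway (IGF1, receptors and their substrates, binding proteins and the proteases of these with their inhibitor), 13 were tested for days 3 and 5 and 14 for days 7, 11 and 0. IGFBP3, the main carrier of IGFs in blood, had 19.45 ± 0.156 FPKM with HCl on day 11 and 256 ± 2.65 FPKM in controls (-3.64 ± 0.08, edgeR adjusted p = 4.01e-25). IGFBP5 had 4.85 ± 0.0354 FPKM with HCl and 124 ± 9.36 FPKM in controls (-4.60 ± 0.31), and PAPPA, a protease that frees IGFs from binding proteins, fell by 2.57 on the log2 scale. In all, 5 of 14 were called with HCl on day 11, each lower, against 21.1% of all genes tested. With NaHCO3 on day 11, 5 of 14 were also lower, against 16.9%, with IRS1, a substrate of the IGF1 and insulin receptors, at 3.23 ± 0.276 FPKM with NaHCO3 and 9.85 ± 0.594 FPKM in controls. IGFBP5 (-1.16 ± 0.26), IGFBP7 (-1.17 ± 0.16) and PAPPA (-1.30 ± 0.17) were lower with it, on a day when IGF2 was higher. Before that day IGFBP5 and IGFBP3 were called higher with NaHCO3, as IGF2 was. IGFBP5 had 18.31 ± 2.10 FPKM with NaHCO3 on day 7 and 3.47 ± 0.170 FPKM in controls (2.53 ± 0.30), and IGFBP3 was higher on days 5 (1.48 ± 0.17) and 7 (1.13 ± 0.07), while IGFBP7 was lower on days 5 (-1.58 ± 0.19) and 7 (-1.06 ± 0.19). With 2-DG, STC2, a secreted inhibitor of PAPPA, was higher on all 4 days, with 44.2 ± 0.488 FPKM with 2-DG on day 5 and 1.21 ± 0.00707 FPKM without it (5.36 ± 0.17).

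Of 10 genes listed as keepers of imprints, which hold or read the methylation marks, 9 were tested, and at most 3 were called in any of the 20 treatment comparisons. UHRF1, which guides the methyltransferase DNMT1 to newly copied DNA, had 4.93 ± 0.707 FPKM with HCl on day 3 and 18.69 ± 0.0141 FPKM in controls (-1.84 ± 0.15). ZFP57 and NLRP7, named after their values were seen, were called higher in the same comparison, both with less than 5 FPKM, so that 3 of 9 were called there, against 10.6% of all genes tested. Against undifferentiated cells, DNMT1 had 7.74 ± 0.601 FPKM in controls of day 11 and 16.92 ± 1.02 FPKM in undifferentiated cells (-1.23 ± 0.08), and TRIM28 had 54.93 ± 2.55 FPKM in controls of day 11 and 115 ± 9.27 FPKM in undifferentiated cells (-1.17 ± 0.07). With HCl and with IWP2 on day 11, 5 of the 9 were called lower than in undifferentiated cells, where 41.4% (HCl) and 40.0% (IWP2) of all genes tested were called in either direction.

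Ranked over all 25 groups, IGF2 had its highest mean with NaHCO3 on day 11 (1502 FPKM) and its lowest in undifferentiated cells (0.765 FPKM), and neighbouring groups overlapped in 7 of the 24 steps of that order. The 2 highest groups, NaHCO3 on days 11 and 7, did overlap. H19 had its highest mean with NaHCO3 on day 7 (6421 FPKM) and its lowest with HCl on day 3 (1.70 FPKM), with overlap in 10 of 24 steps. PLAGL1 ranged between 14.33 FPKM with NaHCO3 on day 7 and 0.0800 FPKM in undifferentiated cells (12 of 24 steps overlapped), and MEST between 254 FPKM with IWP2 and NaHCO3 on day 11 and 31.59 FPKM with both agents on day 3 (8 of 24). CDKN1C (15 of 24), DLK1 (14), PEG3 (14), GRB10 (13) and PEG10 (17) were less finely ordered. PEG10 and GRB10 had the narrowest ranges, with ratios of the highest to the lowest mean of 5.76 each.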

How the data were processed

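RNA of 50 libraries had been extracted with RNAiso Plus and made into libraries with a VAHTS Universal V8 kit, per the labels' protocols. Cutadapt 1.9.1, HISAT2 2.0.1, HTSeq 0.6.1 and the build GRCh37 are named in the submitters' processing notes. The authors deposited, per the file headers, whole read counts per gene and FPKM values per gene in 2 tables, and FPKM recomputed here from the counts and lengths lay within 0.005 of those deposited. The 10 genes and all gene and marker lists were chosen with earlier results of these data known. Fits were made with edgeR 4.0.16 in R 4.3.3 (TMM, robust quasi-likelihood, 1 mean per group), separately in each table, on genes that reached 1 FPKM or more in 2 or more libraries of the table. These were 17286 genes for days 3 and 5 and 18451 for days 7, 11 and 0, with p-values adjusted over all of them by Benjamini and Hochberg. Alternatives used DESeq2 1.42.0, limma 3.58.1 on log2(FPKM + 1) or log2(FPKM + 0.1), DESeq2's size factors in edgeR, no filter, a block and 1 library left out. The procedure was run on simulated counts for HCl on day 3 (16901 genes) and on day 11 (18032 genes), with 50 genes changed at each fold. It called 48% of 2-fold changes for day 3 and 40% for day 11, where 2-fold is itself the threshold of a call. It called 100% of changes of 3-fold, 4-fold and 8-fold in both. The changed genes were drawn from those with 100 or more expected reads, and all genes were given 1 common spread. How the percentages hold for genes with few reads or another spread was not tested. Among unchanged genes, 1 was called for day 3 and 5 for day 11. The genes named are the 10, plus up to 4 imprinted genes per comparison with the largest called changes and 5 FPKM or more in the higher group, examples of the other lists chosen after their values were seen, and for each of the 10 the 3 genes of highest mean correlation over the tables. Promoter and microRNA sequences are RefSeq's on GRCh38.p14, and no coordinates were moved between builds.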

Additional observations from a re-analysis of the deposited data

Results flagged for a closer look

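Each result here is a difference between 2 effects that passed edgeR's test of that difference (adjusted p under 0.05, log2 difference of 1 or more in size). No explanation of any of them was tested. The HCl effect on day 5 differed from that on day 3 by -3.87 ± 0.29 for IGF2, -3.28 ± 0.45 for H19, -3.11 ± 0.30 for CDKN1C, -2.27 ± 0.30 for PLAGL1 and 1.79 ± 0.27 for DLK1. Of these, CDKN1C was called higher with HCl on day 3 and lower on day 5. The HCl effect on day 11 differed from that on day 7 by -1.29 ± 0.25 for IGF2, -6.58 ± 0.33 for DLK1, 1.23 ± 0.15 for PEG3 and 1.18 ± 0.19 for PLAGL1. DLK1 was called higher with HCl on day 7 and lower on day 11.

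The IWP2 effect on day 5 differed from that on day 3 by -1.23 ± 0.29 for CDKN1C, and that on day 11 differed from that on day 7 by -5.57 ± 0.30 for DLK1, which was again called in opposite directions on these days.

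The NaHCO3 effect in the presence of IWP2 differed from that in its absence on day 5 by 2.58 ± 0.30 for DLK1 and 1.82 ± 0.26 for PLAGL1. On day 7 it differed by 1.13 ± 0.25 for IGF2, 1.73 ± 0.28 for H19, 1.13 ± 0.16 for CDKN1C, 1.39 ± 0.09 for MEST and 2.35 ± 0.15 for PLAGL1. On day 11 it differed by 1.58 ± 0.25 for IGF2, 2.05 ± 0.28 for H19, 3.95 ± 0.27 for DLK1, 1.53 ± 0.09 for MEST and 1.83 ± 0.15 for PLAGL1. DLK1 was called lower with NaHCO3 alone on day 11 and higher with NaHCO3 added to IWP2.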

How the results depend on the processing

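Of 325 results for the 10 genes, 172 were called, and 152 of these kept their call in every alternative run while 20 lost it in at least 1. Of the 153 uncalled, 12 gained a call in at least 1 alternative, and no called value changed sign. limma with a pseudocount of 1 changed the most calls of the alternatives that kept all libraries, with 14 lost and 1 gained. Leaving out 1 library at a time lost 19 calls and gained 14 over 1828 values. Beside the values given with the results, with limma at a pseudocount of 1 PLAGL1 lost its call in IWP2 cultures between days 3 and 5 (0.95), CDKN1C with HCl on day 11 against undifferentiated cells (0.98), and calls were gained for PLAGL1 with IWP2 between days 7 and 11 (1.08) and in the IWP2 effect of those days (1.05), both without replicate 2 of the IWP2 libraries of day 7, and for PEG10 in the HCl effect between days 3 and 5 (-1.05) without replicate 2 of the HCl libraries of day 5. The number of all genes called moved by over 1.5 times in 57 values, where leaving out a library was an alternative chosen after seeing the data. With limma at a pseudocount of 1 it fell in 32 comparisons, to between 0.337 and 0.645 of the main number. With 2-DG on day 3 it was 2427 without replicate 2 of the 2-DG libraries, against 620 with it. For the NaHCO3 effect with against without IWP2 on day 3 it ranged between 14 and 191, against 69, and for IWP2 on day 3 between 43 and 184, against 106. Replicate numbers were not taken to pair the libraries, since the correlation of deviations between groups had medians of 0.024 (days 3 and 5) and -0.017 (other days). It ran from -0.274 to 0.671 over 66 pairs of groups for days 3 and 5, with 25 over 0.1. For the other days it ran from -0.213 to 0.305 over 78 pairs, with 8 over 0.1. Some shared structure on days 3 and 5 thus remains possible. A replicate block gave 25 calls with HCl, as without it, and changed none of the 325 calls.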
